A study of Mus musculus with 24 samples.

Results

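The genes described are those of the proteasome, the complex that degrades proteins tagged with ubiquitin. They were taken as every symbol that begins with Psm followed by a letter from a to g and a number, leaving out Psmb8, Psmb9 and Psmb10, the catalytic subunits of the immunoproteasome. The rule found 45 genes among the 15323 symbols listed in any of 6 tables, and all 45 were listed in all 6. By role they were 7 subunits of the alpha ring, 8 of the beta ring, 6 ATPases and 3 other subunits of the base, 8 subunits of the lid, 4 chaperones that assemble the core, 3 chaperones that assemble the base, 4 activators and the regulator Psmf1. The last, Psmc3ip, matches the pattern only by its name: it encodes a factor of meiotic recombination and is no proteasome subunit.

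Background on the complex helps to read the groups. The core particle is a barrel of stacked rings; the outer alpha rings gate the entrance, and in the inner beta rings Psmb6, Psmb7 and Psmb5 carry the caspase-like, trypsin-like and chymotrypsin-like sites. The regulatory particle caps the barrel: its base unfolds substrates with a ring of ATPases, and its lid removes ubiquitin through the deubiquitinase Psmd14. Psmg1 with Psmg2, and Psmg3 with Psmg4, form pairs of chaperones that help to build the alpha ring and leave the finished particle. Other caps open the barrel without ubiquitin; Psme1 and Psme2 together form one that interferon induces along with the immunoproteasome, Psme3 forms a nuclear one and Psme4 another. Genes of the subunits are known to be raised together by the factor Nfe2l1 when proteasome activity falls short.

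The 24 libraries held polyadenylated RNA from mammospheres, floating spheres grown from mammary cells without serum in EGF and bFGF, of mice with the FVB/Hsd background, and fell into 8 groups. Wild-type spheres of the normal gland at passage 3, from mice aged 7 weeks, carried the lentiviral vector pWPI either empty (3 libraries) or with Myc-ER, in which Myc is joined to hormone-binding sequence of the oestrogen receptor (3 libraries); both were taken 72 h after plating, and no ligand for the fusion is named. Spheres from breast tumours of mice aged 12 to 15 weeks with an MMTV-ErbB2 transgene, a mutated ErbB2 under a viral promoter active in mammary epithelium, were not infected, were at passages 6 to 7, and were untreated (5 libraries) or given 2.5 µM Nutlin-3, which keeps Mdm2 from binding p53, for 72 h (3 libraries). Spheres of the normal gland of Trp53 knockout mice aged 7 weeks, also not infected and at passages 6 to 7, gave 2 libraries. Wild-type cells at passage 1, from mice aged 7 weeks, were sorted by PKH, a membrane dye diluted at each division. They gave 2 libraries of PKH-high and 3 of PKH-negative cells, with no time after plating given. PKH-negative cells with the Myc-ER lentivirus were taken at passage 3, 72 h after plating, also from mice aged 7 weeks (3 libraries). Each comparison is 1 deposited table, which gives group means only, so the values of single libraries and their spread are not shown here.

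Every mean below is the authors' deposited group mean of normalised counts, and every log2 fold change and adjusted p comes from the authors' deposited table of that comparison. Errors after ± are standard errors worked out from the deposited p-value and fold change, and intervals are the 95% intervals they give. The words rose and fell are kept for genes with an adjusted p under 0.05 there. The file headers call the replicates biological without naming animals, so p-values measure the spread between these samples. Summed over the genes listed, the means came to between 36651122 and 48054435 per group and table.

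The engineered genes and the cell type markers bear on all comparisons. The mean of Myc was 16782 with Myc-ER and 2975 without in unsorted spheres, and 28517 and 5996 in PKH-negative cells. Trp53 was lower but still counted in the libraries labelled Trp53 knockout (2998 against 4207), and Erbb2 was lower in the libraries labelled ErbB2 tumour, called tumour spheres below (736 against 1498, -1.003 ± 0.37, adjusted p = 0.0271), which goes against the label as far as the mouse gene is counted; whether reads of the transgene count there was not tested. Markers of mammary epithelium were low in all groups but the PKH-high one: the summed mean of the listed ones among Epcam, Cdh1, Krt8, Krt18, Krt5 and Krt14 was 3131 with the empty vector and 33444 in PKH-high cells, while only Krt18 was listed in the tumour tables. The fibroblast list, led by collagen genes, summed to between 197248 and 528238 in every group. In such bulk samples, fewer cells of a type and less RNA per cell cannot be told apart.

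With the empty vector, the subunits of the proteasome lay within a narrow range of levels, and the chaperones that assemble them lay below it. Levels between genes are compared here as mean normalised counts per kb of exon, within the table of Myc-ER. The length joins all exons annotated for a gene, used in these cells or not, so the order depends on the annotation. Psmb1 had a mean of 6040 over 3427 bases and Psmb4 of 7251 over 1183 bases, and Psme4 has 6491 bases. The 14 core particle subunits other than Psmb11 lay between 1762 (Psmb1, beta ring) and 6129 (Psmb4, beta ring) per kb, with a median of 4164, a span of 3.48-fold. The 17 regulatory particle subunits lay between 1249 (Psmd11, lid) and 5779 (Psmd2, base) per kb, with a median of 2850. The 4 core assembly chaperones stood below every one of these subunits, from 464 per kb for Psmg3 to 799 for Psmg1, and the base chaperones Psmd5, Psmd9 and Psmd10, the activator Psme4 and the regulator Psmf1 were likewise below every one of these subunits, with Psmf1 at 383 per kb. Psmb11, which in mouse belongs to the proteasome of the thymus, had means of only 8 to 25 normalised counts in all tables and is left out of the statements on the core below.

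**Figure D1:**
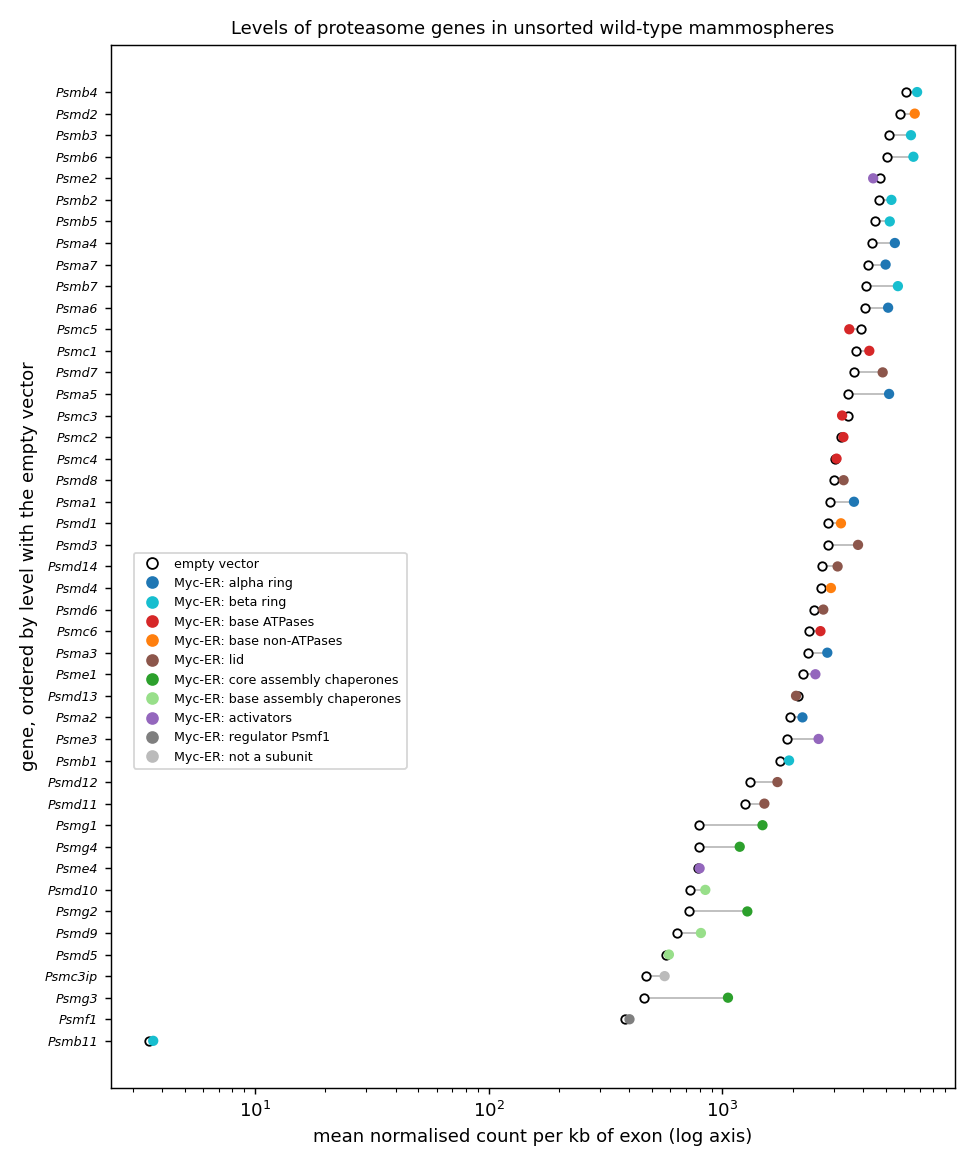
Level of each of the 45 genes as the authors' mean normalised count per kb of exon (log axis) in unsorted wild-type mammospheres, with the empty vector (open circles, 3 libraries) and with Myc-ER (filled circles, 3 libraries, coloured by role); no error can be drawn because only group means are given. The 4 core assembly chaperones move to the right, from a median of 761 to 1234 per kb.

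The effect of the Myc-ER fusion on wild-type spheres was read against the empty vector. Of the 45 genes, 21 rose and 0 fell, against 26.7% of all 13873 genes listed there that rose and 24.1% that fell; no gene of the 45 was lower at an unadjusted p below 0.05 either, and 24 were higher. The members' median log2 fold change was 0.21, with a range from -0.17 to 1.18, beside a median of -0.02 over all genes listed. The rise was largest for the chaperones that assemble the core, then for the alpha ring, and 0 of the 6 base ATPases passed the test. Summed over the 45 genes, the means came to 5669 per 1000000 normalised counts with Myc-ER and 4625 with the empty vector.

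All 4 core assembly chaperones rose. Psmg3 had means of 409 normalised counts with the empty vector and 934 with Myc-ER, the largest log2 fold change among the 45 genes (1.18 ± 0.13, adjusted p = 9.44e-18). Its partner Psmg4 had means of 443 and 659 (0.57 ± 0.17, adjusted p = 0.00202). In the other pair, Psmg1 rose from 834 to 1553 (0.88 ± 0.22, adjusted p = 1.91e-04) and Psmg2 from 942 to 1668 (0.82 ± 0.14, adjusted p = 1.41e-08). Their median per kb was 1234 with Myc-ER, which was still below the lowest ring, base or lid subunit, Psmd11, at 1515 per kb. Exons of Psmg3 overlap the gene model Gm26938 on the same strand. Of the 3 chaperones of the base, Psmd9 rose (0.34 ± 0.10, adjusted p = 0.00169), while Psmd10 (0.22 ± 0.10, adjusted p = 0.0623) and Psmd5 (0.04 ± 0.06, adjusted p = 0.598) did not pass.

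The promoters of Psmg1, Psmg3 and Psmg4 are printed because they rose in both Myc-ER comparisons and belong to the role with the highest median, that of Psme3 because its response differed between them, and those of Psme1 and Psme2 because these fell in the tumour spheres. They are RefSeq promoter windows on GRCm38.p6, the assembly also called mm10, of 250 bases before to 50 bases after the start of the gene, read 5′ to 3′ along its strand. Capitals mark, on either strand, CACGTG (the E-box that Myc with Max can bind), CCGGAAG (a core bound by ETS factors), TGANNNNGC (the core of the element bound by Nfe2l1 and Nfe2l2 with small Maf proteins) and the core of the interferon-stimulated response element (GAAA, 2 further bases, GAAA). In Psmg4, a TGANNNNGC match and the interferon-type match overlap.
Psmg1: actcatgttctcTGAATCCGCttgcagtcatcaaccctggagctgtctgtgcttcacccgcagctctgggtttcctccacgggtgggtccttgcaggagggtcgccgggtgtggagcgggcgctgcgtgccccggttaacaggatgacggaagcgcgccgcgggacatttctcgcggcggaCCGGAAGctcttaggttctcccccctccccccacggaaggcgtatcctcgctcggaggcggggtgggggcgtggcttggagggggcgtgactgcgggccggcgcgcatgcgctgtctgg
Psmg3: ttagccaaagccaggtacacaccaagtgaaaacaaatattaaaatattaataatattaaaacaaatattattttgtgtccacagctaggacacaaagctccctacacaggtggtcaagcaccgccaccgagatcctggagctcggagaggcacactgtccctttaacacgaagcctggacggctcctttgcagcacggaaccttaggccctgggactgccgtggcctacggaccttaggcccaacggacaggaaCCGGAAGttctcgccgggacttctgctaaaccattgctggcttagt
Psmg4: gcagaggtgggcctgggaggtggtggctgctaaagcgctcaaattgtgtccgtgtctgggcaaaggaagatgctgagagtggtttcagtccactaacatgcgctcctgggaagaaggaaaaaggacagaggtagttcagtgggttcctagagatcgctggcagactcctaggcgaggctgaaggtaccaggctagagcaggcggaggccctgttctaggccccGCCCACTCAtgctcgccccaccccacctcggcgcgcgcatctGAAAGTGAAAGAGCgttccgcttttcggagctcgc
Psme3: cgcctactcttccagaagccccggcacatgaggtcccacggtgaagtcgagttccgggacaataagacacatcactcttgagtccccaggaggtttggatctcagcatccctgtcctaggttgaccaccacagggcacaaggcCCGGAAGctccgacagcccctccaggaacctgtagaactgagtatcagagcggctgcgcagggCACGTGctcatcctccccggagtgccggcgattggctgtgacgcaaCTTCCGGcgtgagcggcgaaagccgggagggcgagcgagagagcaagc
Psme1: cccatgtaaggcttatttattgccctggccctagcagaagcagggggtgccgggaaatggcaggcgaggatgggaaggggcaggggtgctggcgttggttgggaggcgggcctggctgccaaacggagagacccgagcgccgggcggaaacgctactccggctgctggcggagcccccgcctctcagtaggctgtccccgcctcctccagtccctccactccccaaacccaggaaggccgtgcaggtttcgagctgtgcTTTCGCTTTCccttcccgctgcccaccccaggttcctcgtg
Psme2: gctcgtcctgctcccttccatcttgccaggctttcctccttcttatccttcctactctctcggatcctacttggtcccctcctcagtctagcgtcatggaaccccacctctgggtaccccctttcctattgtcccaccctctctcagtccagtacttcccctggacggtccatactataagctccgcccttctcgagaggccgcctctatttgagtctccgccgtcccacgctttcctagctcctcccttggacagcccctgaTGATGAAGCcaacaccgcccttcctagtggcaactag
The window of Psmg1 is chr16:95990911-95991210, minus strand; that of Psmg3 is chr5:139826845-139827144, minus strand; and that of Psmg4 is chr13:34162714-34163013, plus strand. The window of Psme3 is chr11:101315963-101316262, plus strand; that of Psme1 is chr14:55578244-55578543, plus strand; and that of Psme2 is chr14:55591052-55591351, minus strand.

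Of the 6 windows printed, that of Psme3 alone holds CACGTG, 44 bases before the start. Promoters were found for 38 of the 45 genes, and 3 of the 38 held CACGTG (7.89%: Psma4, Psmd9 and Psme3), beside 8.09% of all 27025 genes in the promoter table and 11.5% of those also listed in the table of Myc-ER. CCGGAAG was found in 15 of 38 proteasome windows (39.5%) and in 18.1% of the windows of listed genes; Psmg1 and Psmg3 have it, and so do 2 places in the window of Psme3. TGANNNNGC was found in 22 of 38 (57.9%), against 47.7% of listed genes. The interferon-type core, chosen for search after the values had been seen, was in 5 of 38 (13.2%: Psmb3, Psmd4, Psmd9, Psme1 and Psmg4), against 3.72% of listed genes. Among the other motifs searched, GGGCGG was in 57.9% against 67.3%, CCAAT in 36.8% against 42.7% and TATAAA in 7.89% against 9.49%. A match of letters is a description of the window and not a bound site.

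In the core particle, 9 of 14 subunits rose with Myc-ER and none fell; the 14 had a median of 0.29. Of these 9, 6 belong to the alpha ring, where only Psma4 did not pass (0.32 ± 0.16, adjusted p = 0.0838). Psma5, an alpha-ring subunit, rose most, from a mean of 4286 to 6416 (0.58 ± 0.13, adjusted p = 2.55e-05). Of the catalytic subunits, Psmb7 rose from 4779 to 6552 (0.45 ± 0.06, adjusted p = 8.17e-15) and Psmb6 from 4050 to 5251 (0.37 ± 0.10, adjusted p = 4.62e-04). Psmb5, which carries the chymotrypsin-like site, had means of 4047 and 4688 and did not pass (0.21 ± 0.10, adjusted p = 0.0609). Psmb3 of the beta ring rose by 0.31 ± 0.08 on the log2 scale. Exons of Psma4, Psma5 and Psmb7 overlap those of a gene on the opposite strand, whose reads may not be told apart from theirs.

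In the regulatory particle 5 of 17 subunits rose with Myc-ER and none fell, with a median of 0.17. Lid subunits made up 4 of them: Psmd3 (0.42 ± 0.10, adjusted p = 1.06e-04), Psmd7, which pairs with the deubiquitinase Psmd14 (0.40 ± 0.08, adjusted p = 3.46e-06), Psmd12 (0.39 ± 0.13, adjusted p = 0.00751) and Psmd11 (0.28 ± 0.09, adjusted p = 0.00638). Psmd14 itself had means of 4136 and 4804 and did not pass (0.21 ± 0.12, adjusted p = 0.125). In the base, Psmd2, a docking subunit for ubiquitin carriers and deubiquitinases, rose from a mean of 17112 to 19744 (0.21 ± 0.06, adjusted p = 0.00256). The 6 ATPases lay between -0.17 ± 0.12 for Psmc5 and 0.20 ± 0.11 for Psmc1, and all of their intervals lay between -0.40 and 0.43. Whether the ATPases differ from the alpha ring in their response was not tested. Exons of Psmd3 overlap the gene model Gm12356 on the opposite strand.

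Among the activators, Psme3, the nuclear cap, rose from a mean of 5034 to 6885 with Myc-ER (0.45 ± 0.07, adjusted p = 3.51e-10). Psme1 (0.18 ± 0.11, adjusted p = 0.147), Psme2 (-0.09 ± 0.13, adjusted p = 0.568) and Psme4 (0.02 ± 0.08, adjusted p = 0.83) did not pass, nor did Psmf1 (0.07 ± 0.08, adjusted p = 0.498). The immunoproteasome subunits, outside the 45 genes, did not pass either, with Psmb8 at -0.33 ± 0.22 (adjusted p = 0.209). Psmc3ip, the recombination factor, whose exons overlap Mlx on the opposite strand, rose by 0.27 ± 0.12 on the log2 scale (adjusted p = 0.0479). Of the 24 genes that did not pass, 22 had a 95% interval within a 1.5-fold change in either direction.

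Genes that work with the proteasome moved in the same table. Of 16 listed genes whose products bind or serve the particle, 9 rose and 1 fell; the rises included Uchl5, a deubiquitinase of the regulatory particle (1.23 ± 0.16), Ubqln4, a carrier of ubiquitin-tagged proteins (1.13 ± 0.08), Usp14, another deubiquitinase (0.59 ± 0.13), and Pomp, a maturation factor of the core (0.29 ± 0.11). Zfand5, an activator of the particle, fell (-0.53 ± 0.16). Of 12 genes that control proteasome genes, 5 fell and 1 rose: Nfe2l1 went from a mean of 22043 to 14111 (-0.64 ± 0.15, adjusted p = 7.19e-05), its small Maf partner Maff was lower (-1.14 ± 0.15), and so was Sel1l of the degradation machinery of the endoplasmic reticulum (-0.86 ± 0.11), while Vcp, the unfoldase that helps to release Nfe2l1 from the membrane, was higher (0.21 ± 0.09). Of 7 genes for ubiquitin and its activation 4 rose, among them the fusion gene of ubiquitin and a ribosomal protein Rps27a (0.70 ± 0.15), and the polyubiquitin gene Ubb fell (-0.85 ± 0.14). Macrophage markers were lower with Myc-ER (10 of 11 listed, summed mean 1864 against 4172), as were endothelial markers (5 of 8 listed, 2178 against 6387) and fibroblast markers (4 of 6 listed, 233341 against 503771), and their part in these values was not tested.

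**Figure D2:**
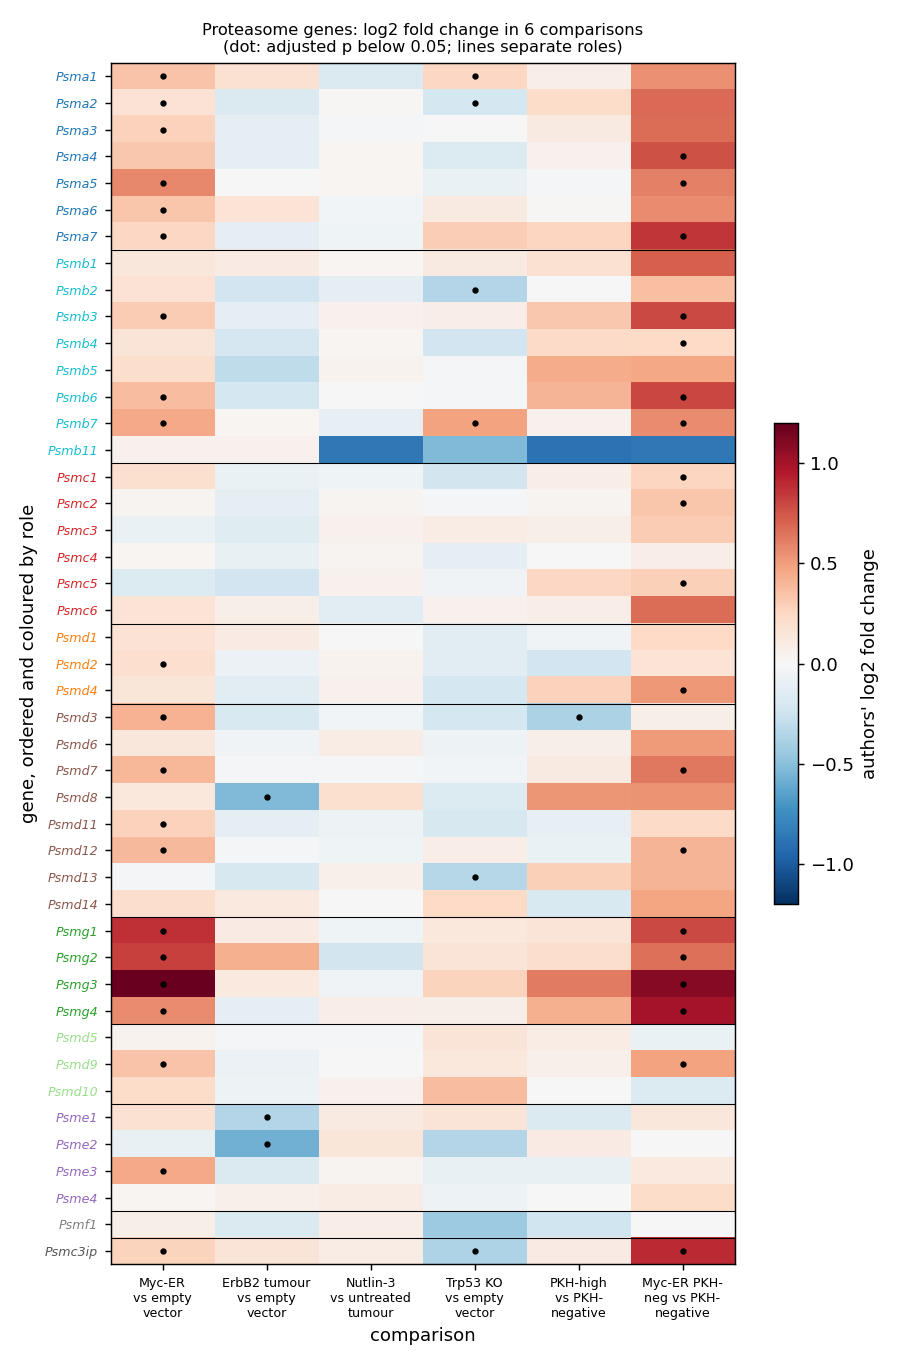
The authors' log2 fold change (colour, from blue for lower to red for higher) of the 45 genes (rows, ordered by role) in the 6 deposited comparisons (columns); a dot marks an adjusted p below 0.05. In the Myc-ER columns 21 and 19 genes carry a dot, the 4 core assembly chaperones in both, and in the other columns 0 to 6.

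The Myc-ER lentivirus in PKH-negative cells gives the same perturbation in libraries that share none with the first table. But there infection and passage differ between the groups along with the fusion, since the PKH-negative cells compared were uninfected and at passage 1. A time of 72 h after plating is given for the Myc-ER cells only. Of the 45 genes, 19 rose and 0 fell, against 18.9% of all 14382 genes listed that rose and 18.5% that fell; 25 were higher and 0 lower at an unadjusted p below 0.05. The median log2 fold change was 0.47, beside 0.03 over all genes listed. Standard errors were wider than in the first table, with a median of 0.20 against 0.10. Of the 26 genes that did not pass, 9 had an interval within a 1.5-fold change.

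All 4 core assembly chaperones rose again. Psmg3 had means of 454 and 1001 normalised counts (1.09 ± 0.26, adjusted p = 1.56e-04) and Psmg4 of 362 and 735 (0.998 ± 0.19, adjusted p = 2.64e-06). Psmg1 rose from 897 to 1557 (0.79 ± 0.12, adjusted p = 3.44e-09) and Psmg2 from 1172 to 1873 (0.66 ± 0.19, adjusted p = 0.00288). Among the base chaperones Psmd9 rose (0.49 ± 0.20, adjusted p = 0.0408), while Psmd5 (-0.08 ± 0.20) and Psmd10 (-0.16 ± 0.26) did not pass. Psmc3ip rose as well (0.90 ± 0.26, adjusted p = 0.00294).

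In the core particle 7 of 14 subunits rose in PKH-negative cells with Myc-ER, with a median of 0.64. Psma7, an alpha-ring subunit, went from 4423 to 8271 (0.86 ± 0.30, adjusted p = 0.0133) and Psma4 from 5055 to 8776 (0.77 ± 0.24, adjusted p = 0.00614). The catalytic subunits Psmb6 (3789 to 6679, 0.80 ± 0.19, adjusted p = 2.42e-04) and Psmb7 (4588 to 6827, 0.57 ± 0.11, adjusted p = 1.69e-06) rose, and Psmb5 (4098 against 5745, 0.46 ± 0.30, adjusted p = 0.236) did not pass. Several subunits with a large value did not pass either, such as Psmb1 at 0.72 ± 0.34 (adjusted p = 0.0818) and Psma2 at 0.68 ± 0.32 (adjusted p = 0.0857). In the regulatory particle 6 of 17 rose, with a median of 0.33: the ATPases Psmc1 (0.26 ± 0.09), Psmc2 (0.33 ± 0.13) and Psmc5 (0.28 ± 0.10), the ubiquitin receptor Psmd4 (0.52 ± 0.12, adjusted p = 2.23e-04) and the lid subunits Psmd7 (0.63 ± 0.17) and Psmd12 (0.41 ± 0.12). Psmd14 (0.47 ± 0.21, adjusted p = 0.0691) did not pass, and 0 of the 4 activators did.

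Of the genes outside the 45, 5 of the 16 that serve the particle rose, with Uchl5 at 1.06 ± 0.21 and Ubqln4 at 0.61 ± 0.20. Of the 3 immunoproteasome subunits 1 fell and 0 rose, with log2 fold changes from -0.32 to 0.07. Of the control genes 4 fell and 1 rose, with Maff at -1.10 ± 0.32, Stat3 at -0.90 ± 0.13 and Vcp, the one that rose, at 0.39 ± 0.08; Nfe2l1 did not pass (-0.26 ± 0.24, adjusted p = 0.423). Rps27a, the fusion gene of ubiquitin and a ribosomal protein, rose (1.68 ± 0.49). The epithelial markers had summed means of 526 and 487, and fibroblast markers of 249423 and 398249, with 3 of 7 lower. Of 6 listed macrophage markers 1 was higher and 2 were lower (summed mean 1328 against 1491). Endothelial markers were lower for 6 of 7 listed (summed mean 1093 against 4683), and the part of these cell types in the values was not tested.

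Set side by side, 13 genes rose in both Myc-ER tables: Psma5, Psma7, Psmb3, Psmb6, Psmb7, Psmd7, Psmd9, Psmd12, Psmc3ip and Psmg1 to Psmg4. They were 61.9% of the 21 that rose in unsorted spheres and 68.4% of the 19 that rose in PKH-negative cells. The matching shares over all genes listed in both were not worked out, so this overlap is not read as particular to the proteasome. Fold changes were above 0 in both tables for 38 of 45 genes, and 33 of 45 were larger in PKH-negative cells. These counts were not worked out over all genes either. The median over all genes listed was also higher in the PKH-negative table (0.03 against -0.02). In the test of the difference given below, 0 of the 45 genes were larger in PKH-negative cells after adjustment. Across the 45 genes, which are not independent replicates, the fold changes of the tables had Pearson r = 0.53 and Spearman rho = 0.51; without Psmb11 and the 4 core chaperones r was 0.38 over 40 genes, and over all 13431 genes listed in both tables it was 0.62. The difference between the fold changes was tested for every gene listed in both with the combined standard error and Benjamini-Hochberg adjustment. Of the 45 genes 1 differed (background 6.4% of all genes tested, in either direction): Psme3, at 0.12 ± 0.09 in PKH-negative cells and 0.45 ± 0.07 in unsorted spheres, a difference of -0.33 ± 0.11 (adjusted p = 0.0456, interval -0.55 to -0.11). Means of Psme3 were 6245 and 6789 in the PKH-negative table. The ATPase Psmc5, at 0.28 ± 0.10 against -0.17 ± 0.12, differed by 0.45 ± 0.16 and did not pass after adjustment (adjusted p = 0.0643); 5 of the 45 genes had an unadjusted p below 0.05.

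**Figure D3:**
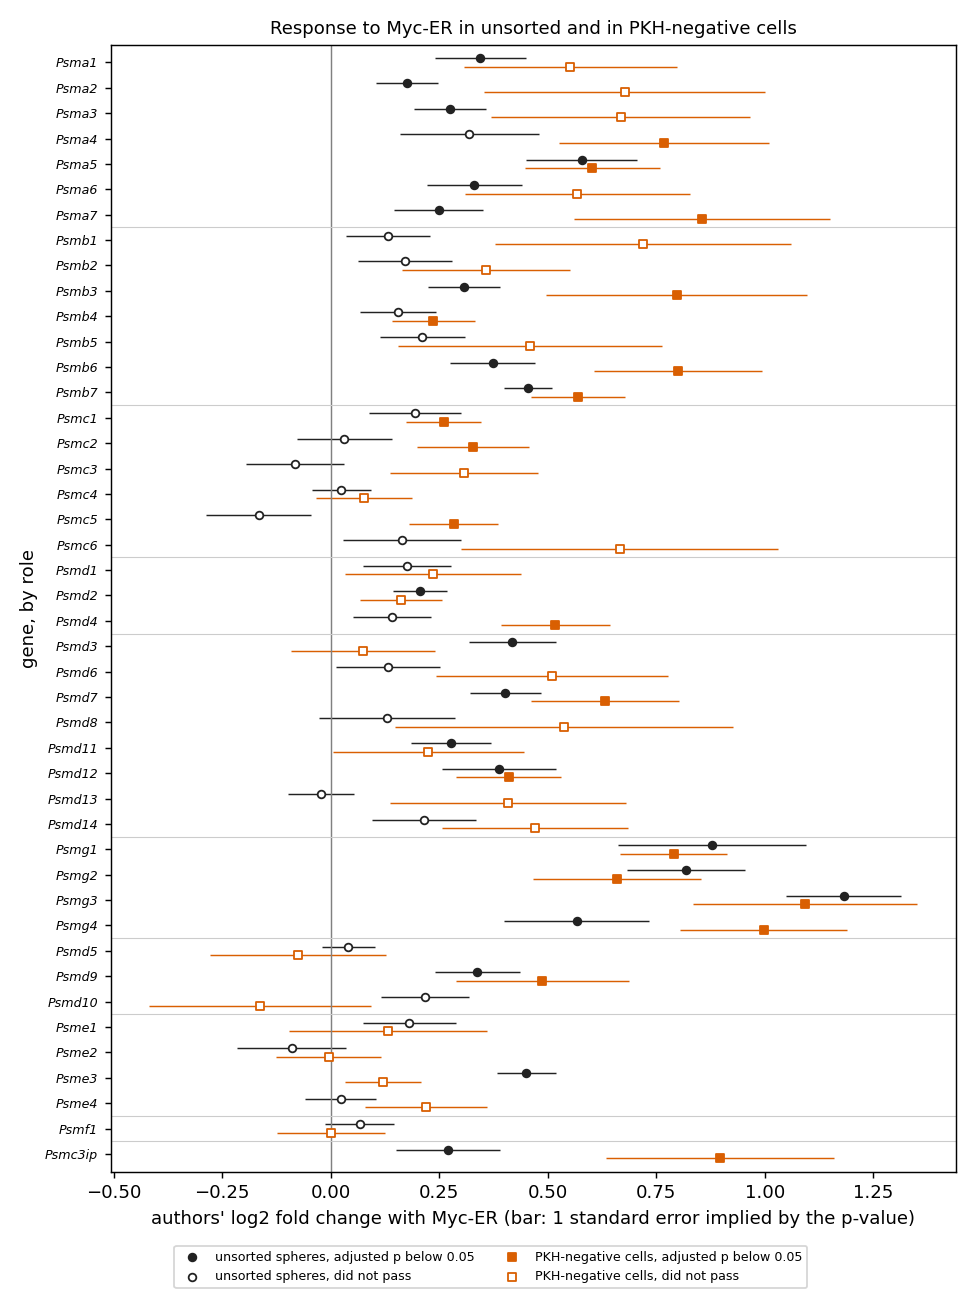
The authors' log2 fold change with Myc-ER for 44 of the 45 genes (Psmb11 is left out for its low counts), in unsorted spheres (black circles) and in PKH-negative cells (orange squares); bars are 1 standard error as implied by the p-value, and filled symbols have an adjusted p below 0.05. The core assembly chaperones Psmg1 to Psmg4 lie between 0.57 and 1.18 in both, the ATPases Psmc1 to Psmc6 lie between -0.17 and 0.20 in unsorted spheres, and the orange bars are the longer ones for most genes.

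In the tumour spheres 3 of the 45 genes were lower and 0 higher than in wild-type spheres with the empty vector, and the 3 included both subunits of the interferon-induced cap. The background was 13.6% of 13288 genes lower and 13.5% higher; 1 gene was higher at an unadjusted p below 0.05. The median log2 fold change was -0.09, beside 0.02 over all genes listed, and 37 of the 42 genes that did not pass had an interval within a 1.5-fold change. Tumour and control spheres also differed in infection, passage and the age of the mice, which cannot be told apart from the transgene here, and this comparison shares its empty-vector libraries with those of unsorted Myc-ER and of the knockout.

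Psme2 had means of 4228 with the empty vector and 2831 in the tumour spheres (-0.58 ± 0.12, adjusted p = 2.38e-05), and Psme1, whose exons overlap Emc9 on the opposite strand, of 2258 and 1774 (-0.35 ± 0.11, adjusted p = 0.00934). Psmd8, a lid subunit, fell from 6133 to 4231 (-0.53 ± 0.19, adjusted p = 0.0249). The other activators Psme3 (-0.18 ± 0.10, adjusted p = 0.197) and Psme4 (0.06 ± 0.13, adjusted p = 0.79) did not pass. The window of Psme1 printed above holds the interferon-type motif 10 bases after the start, whereas the window of Psme2 holds only a TGANNNNGC match among the capitalised motifs.

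Of the immunoproteasome subunits, which lie outside the 45 genes, 2 of 3 fell in the tumour spheres. Psmb10, the inducible counterpart of Psmb7, went from 1576 to 501 (-1.64 ± 0.22, adjusted p = 3.07e-12) and Psmb8, that of Psmb5, from 1894 to 773 (-1.29 ± 0.16, adjusted p = 2.40e-13), while Psmb9, that of Psmb6, did not pass (-0.28 ± 0.24, adjusted p = 0.423). The standard catalytic subunits did not pass: Psmb5 had means of 3729 and 3014 (-0.31 ± 0.18, adjusted p = 0.206), Psmb6 of 3726 and 3225 (-0.21 ± 0.13, adjusted p = 0.254) and Psmb7 of 4399 and 4467 (0.02 ± 0.19, adjusted p = 0.952). Macrophage markers were lower as well (4 of 6 listed, summed mean 757 against 3332), and their part in these values was not tested.

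The core assembly chaperones did not pass in the tumour spheres, with Psmg2 at 0.43 ± 0.18 (adjusted p = 0.0653), Psmg3 at 0.11 ± 0.19, Psmg1 at 0.10 ± 0.18 and Psmg4 at -0.11 ± 0.18. Psmd14 was at 0.11 ± 0.15 (adjusted p = 0.646). Of the control genes Nfe2l2, the relative of Nfe2l1 that answers oxidative stress, rose (0.49 ± 0.18), and Maff (-1.18 ± 0.36), Mafk (-0.82 ± 0.24) and Syvn1 (-0.55 ± 0.16) fell. Of the genes that serve the particle, the carrier Ubqln2 rose (0.65 ± 0.18).

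**Figure D4:**
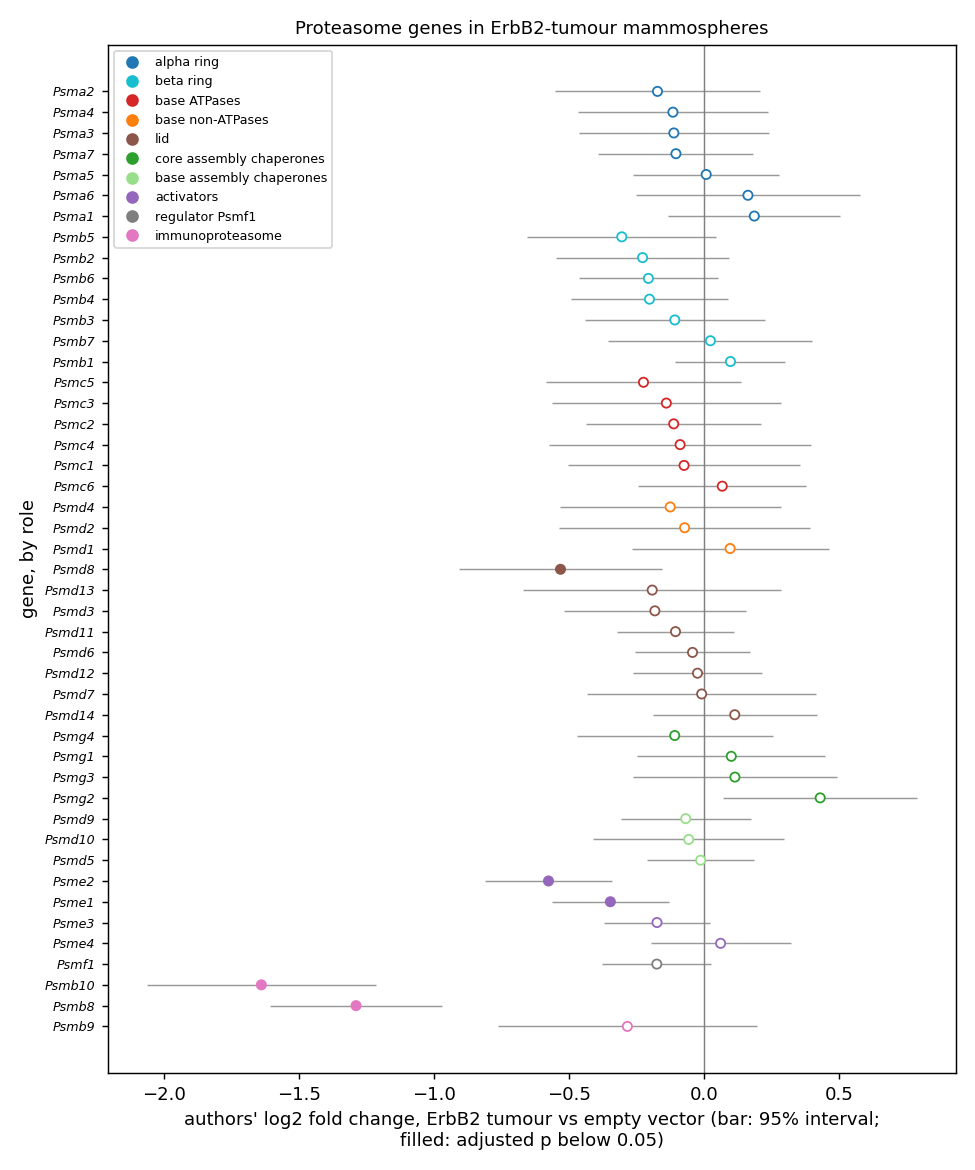
The authors' log2 fold change in ErbB2-tumour spheres (5 libraries) against wild-type spheres with the empty vector (3 libraries) for proteasome genes and the 3 immunoproteasome genes, by role; bars are 95% intervals and filled symbols have an adjusted p below 0.05. Most intervals span 0, and the filled symbols are Psmd8, Psme1 and Psme2 between -0.35 and -0.58 and Psmb8 and Psmb10 at -1.29 and -1.64.

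Nutlin-3 in the tumour spheres asked what p53 stabilised for 72 h changes. The authors paired treated and untreated spheres by tumour, using 3 of the 5 untreated libraries, and their fold change is a mean over those pairs, so no standard error is given. By the authors' test in DESeq2, 0 of the 45 genes rose and 0 fell, against 7.71% of 13038 genes that rose and 7.03% that fell; at an unadjusted p below 0.05, 1 gene was higher and 0 lower. That gene was Psmd8, lower in the tumour spheres as given above, with means of 3986 untreated and 4651 treated (0.19, adjusted p = 0.165). The catalytic subunits were at 0.05 for Psmb5 (2782 and 2923), 0.00 for Psmb6 (3078 and 3107) and -0.10 for Psmb7 (4493 and 4274), and Psmd14 was at -0.00 (4165 and 4191). Psmg2 was at -0.22 (1052 and 898, adjusted p = 0.219) and Psme2 at 0.15 (2666 and 2979, adjusted p = 0.335). The members' median was 0.02, beside 0.03 over all genes listed. The polyubiquitin gene Ubb rose (0.25).

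In the libraries labelled Trp53 knockout 2 of the 45 genes rose and 4 fell against the empty vector, against 22.3% of 14699 genes that rose and 23.6% that fell, with a median of -0.03 beside 0.01 over all genes. Scaled to the sums of the listed means, all fold changes of this table would move up by 0.13. The trypsin-like subunit Psmb7 rose from 4873 to 6835 (0.49 ± 0.15, adjusted p = 0.00276) and the alpha-ring subunit Psma1 from 3644 to 4336 (0.25 ± 0.09, adjusted p = 0.00953). Those that fell were the lid subunit Psmd13 (4262 to 3367, -0.34 ± 0.08, adjusted p = 1.05e-04), the beta-ring subunit Psmb2 (4115 to 3234, -0.35 ± 0.12, adjusted p = 0.0122), the alpha-ring subunit Psma2 (5793 to 5008, -0.21 ± 0.08, adjusted p = 0.0288) and Psmc3ip (618 to 476, -0.37 ± 0.15, adjusted p = 0.0349). Exons of Psmb7, Psmd13 and Psmc3ip overlap a gene on the opposite strand (Nek6, Sirt3 and Mlx).

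Neither the other catalytic subunits nor the core chaperones passed there. Psmb5 (4131 and 4102, -0.01 ± 0.14, adjusted p = 0.959) and Psmb6 (4127 and 4057, -0.02 ± 0.09, adjusted p = 0.854) did not pass, nor did Psmd14 (4212 and 4980, 0.24 ± 0.17, adjusted p = 0.231). The 4 core assembly chaperones lay between 0.07 ± 0.23 for Psmg4 and 0.27 ± 0.18 for Psmg3, and none passed. Of genes outside the 45, Uchl5 (0.64 ± 0.18) and Ubqln4 (0.37 ± 0.11) rose, the core maturation factor Pomp (-0.29 ± 0.13) fell, and so did Vcp (-0.54 ± 0.12) and the small Maf gene Mafk (-0.71 ± 0.15). Of 39 genes that did not pass, 33 had an interval within a 1.5-fold change. Of the immunoproteasome subunits, outside the 45 genes, 0 of 3 passed, with log2 fold changes from -0.29 to 0.25. Of 11 listed macrophage markers 10 were lower and 1 was higher (summed mean 943 against 4268). Endothelial markers were lower as well (7 of 8 listed, 409 against 6551). The part of these cell types in the values was not tested, and infection and passage differ along with the genotype.

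PKH-high against PKH-negative cells asked how cells that have divided little differ from those that have divided more. Of the 45 genes 1 fell and 0 rose, against 15.1% of 13959 genes that fell and 15.6% that rose; at an unadjusted p below 0.05, 6 were higher. The one that fell was the lid subunit Psmd3, whose exons overlap Gm12356 on the opposite strand (6731 to 5183, -0.38 ± 0.13, adjusted p = 0.0166). The median was 0.08, beside 0.01 over all genes, and would move up by 0.17 if scaled to the sums of the listed means. Values above 0.4 that did not pass were those of Psmg3 (418 and 645, 0.62 ± 0.28, adjusted p = 0.0719), Psmd8 (6109 and 8868, 0.53 ± 0.23, adjusted p = 0.07), Psmb5 (3768 and 5147, 0.45 ± 0.22, adjusted p = 0.106), Psmg4 (0.43 ± 0.25, adjusted p = 0.184) and Psmb6 (3483 and 4619, 0.40 ± 0.18, adjusted p = 0.0678). Psmb7 (4218 and 4362, 0.05 ± 0.13, adjusted p = 0.832) and Psmd14 (4231 and 3727, -0.18 ± 0.15, adjusted p = 0.38) did not pass. For 37 of the 44 genes that did not pass, the interval lay within a 1.5-fold change.

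Cell type markers differed widely between the sorted groups. All 6 epithelial markers were higher in PKH-high cells (summed mean 33444 against 451), and so were all 11 listed macrophage markers (49308 against 1400). Of the endothelial markers 6 of 8 were higher and 1 was lower (37488 against 4316). Of the fibroblast markers 4 of 7 were lower and 0 higher (197248 against 366190). Psmb8 was lower in PKH-high cells, at 2019 against 2974 (-0.56 ± 0.16, adjusted p = 0.00254), and Psmb10 did not pass (0.20 ± 0.24, adjusted p = 0.568). Of the control genes 4 of 12 were lower, Nfe2l2 (-0.48 ± 0.14) and Ddi2, the protease that activates Nfe2l1 (-0.57 ± 0.17), among them.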

How the data were processed

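RNA sequencing of polyadenylated RNA was analysed from 6 deposited tables, 1 per comparison, covering 24 libraries in 8 groups. Per the submitters' processing notes the authors used CASAVA 1.9, TopHat2 2.0.8, Bowtie2 2.1.0, SAMtools 0.1.18, HTSeq 0.5.3p9, mm10 and DESeq2 1.10.1. The tables give, per the file headers, a signal (the authors' mean normalised count of each group), the authors' log2 fold change and the authors' p-values, for genes with a mean over 10. Which strand setting HTSeq ran with was not found in the sources used. Headers name wild-type mammospheres where the only unsorted wild-type group is the empty vector, which was taken for them. From the knockout's data 3 entries naming no gene, with 28.2% and 29.7% of the summed means, were left out.

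Standard errors were computed as the log2 fold change over the normal quantile of the p-value, and exon lengths came from GENCODE release M21. The test of the difference was run on simulated data drawn with normal noise and these same standard errors. That checks the computation and cannot show whether the standard errors hold with so few libraries. Tables were normalised separately, so levels are compared within a table. Alternatives were an adjusted p below 0.01, a mean of at least 100, centring, scaling to summed means, the ratio of means plus a pseudocount of 1, and leaving out genes that are not core or regulatory particle subunits. Computation used Python 3.11.15, pandas 2.3.3 and SciPy 1.17.1. In each comparison the text gives Psmb5, Psmb6, Psmb7 and Psmd14, up to 4 genes with the largest rises and falls, and examples chosen after their values were seen. The members and gene lists were chosen with earlier results of these data known.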

Additional observations from a re-analysis of the deposited data

Results flagged for a closer look

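The fold change of Psme3, the gene of the nuclear activator, with Myc-ER differed between PKH-negative cells and unsorted spheres. In the PKH-negative comparison infection, passage and the time given after plating differ along with the fusion, so the difference cannot be assigned to Myc-ER alone. The log2 fold change was 0.12 ± 0.09 in PKH-negative cells and 0.45 ± 0.07 in unsorted spheres, a difference of -0.33 ± 0.11 (interval -0.55 to -0.11). In the test of the difference over 13431 genes, adjusted by Benjamini-Hochberg, it had an adjusted p of 0.0456, and of 0.0291 after each table was centred on its median. Psme3 was the only one of the 45 genes past that threshold, beside 6.4% of all genes tested.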

How the results depend on the processing

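No paired analysis was possible because the tables used here hold group means and no values per library; for the same reason leaving out each replicate in turn was not run. Under the alternatives 34 recomputed counts stayed within 1.5 times, many of them counts of 0 that stayed 0. A mean of at least 100 changed no count, and counts of core and regulatory particle subunits alone cover fewer genes. Of the medians 26 kept their direction and moved by less than the median standard error of the 45 genes. For Nutlin-3, which has no standard error, the limit was 0.1. Calls of single genes were not recomputed under centring, scaling or the ratio of means, where only the sign could change. A mean of at least 100 left the value of every named gene as it was, and an adjusted p below 0.01 could only remove calls. Of the values of single genes 325 kept direction and lost no call, 14 lost the call at an adjusted p below 0.01, and 6, of genes that had not passed, changed sign. These were Psmb7 in the tumour spheres (-0.0009 after centring), Psmb6 under Nutlin-3 (-0.027 after centring, -0.049 after scaling to summed means), Psmd14 under Nutlin-3 (0.0087 as the ratio of means), and in the knockout Psmb5 (0.118) and Psmb6 (0.104) after scaling. At an adjusted p below 0.01, 18 genes rose in the table of Myc-ER and 13 in that of PKH-negative cells, the genes lower in the knockout came to 1 in place of 4, those lower in PKH-high cells to 0 in place of 1, and those differing between the Myc-ER tables to 0 in place of 1. With core and regulatory particle subunits alone, 1 gene was lower in the tumour spheres. The median under Nutlin-3 turned to -0.0078 after centring and to -0.027 after scaling to summed means, the median of the knockout turned to 0.0996 after that scaling, and that of PKH-high cells moved to 0.249; the last 3 follow from the shift that the scaling adds to every gene. Group means carry no spread, and the low counts of Psmb11 give its fold change wide intervals.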
